A study of Mus musculus with 8 samples.

Results

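STAT proteins are latent transcription factors that carry signals from cytokine receptors to the nucleus. A Janus kinase (JAK) bound to the receptor phosphorylates the STAT, which then pairs up and binds DNA, and SOCS proteins made in response shut the signal down. In T cells the STATs take part in the choice between helper programmes: Stat4 follows interleukin-12, Stat6 follows interleukin-4, Stat3 follows interleukins 6, 21 and 23, and Stat5a and Stat5b follow interleukins 2, 7 and 15, while Stat2 relays type I interferon. The genes described here are Stat2, Stat3, Stat4, Stat5a, Stat5b and Stat6, chosen by name. Each had 1 probe set annotated with exactly 1 gene symbol, so they comprised 6 of 21218 such probe sets and 6 of 18820 genes on the array.

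RNA came from CD3-positive T cells recovered at day 30 from grafts of tissue made from human embryonic stem cells. The tolerant group held 4 arrays of cells from hosts that had been injected with anti-CD4, anti CD8 and CD40L, and the rejecting group held 4 arrays of cells from untreated hosts whose grafts were being rejected. All hosts were labelled wildtype CD1 mice, an outbred strain. Age, sex, the isolation method and whether animals were pooled were not given in the sources used here, and no label ties each array to its own animal. The p-values therefore measure only how far these samples scatter, and that scatter may be technical.

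Values are log2 RMA values, a scale on which a difference of 1 doubles the signal. They have no detection calls. In their place each array got a background line, the 99th percentile of its 1182 olfactory and vomeronasal receptor probe sets, whose genes are typical of sensory neurons. The arrays numbered 3 and 4 of either group carried much more signal than those numbered 1 and 2. The share of probe sets above the line was 17.1% on both tolerant arrays numbered 3 and 4, against 15.1% and 10.7% on the rejecting ones. It was 2.77% and 2.54% on tolerant arrays 1 and 2, against 5.03% and 5.73% on rejecting arrays 1 and 2. Each comparison was therefore made 3 times, with all 8 arrays, with those numbered 3 and 4 and with those numbered 1 and 2. Of the T cell markers, Cd3e lay above the line on 5 arrays, with 2.76 and 3.82 on tolerant arrays 3 and 4, against 1.51 and 2.36 on rejecting arrays 3 and 4, while Cd3d and Cd247 lay above it on 0 of 8.

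STAT dimers bind the palindrome TTCNNNGAA, Stat6 also binds TTC and GAA with 4 bases between them (the longer palindrome), and the complex of Stat2 with Irf9 binds sites related to a GAAA repeat with 2 bases between the copies. These letters were searched on both strands in windows of 300 bases, 250 before and 50 after each annotated gene start (RefSeq, GRCm38.p6). All 6 genes matched the table, with 9 windows in all. TTCNNNGAA was in 0 of the 9 windows, against 8.30% of all 32851 windows. The longer palindrome was in 1 of 9, that of Stat2, against 6.95%, and the GAAA repeat was in 2 of 9, those of Stat2 and Stat4, against 3.44%. In the Stat2 window these matches did not overlap. The lines below give the 250 bases before the start of Stat3, the member with the largest difference between the groups, and of Stat2. For comparison they give the same stretch of Socs3, a feedback inhibitor induced through Stat3, and a stretch of 20 bases at the start of Cish, a feedback inhibitor induced through Stat5. Capitals mark the GAAA repeat, read on the other strand, in Stat2 and TTCNNNGAA in the others, and Stat3 had no match. Stat3 lies at chr11:100939541-100939790 (minus strand), Stat2 at chr10:128270248-128270497 (plus), Socs3 at chr11:117969367-117969616 (minus) and Cish at chr9:107296659-107296678 (plus). A match describes letters and does not show a bound site.
Stat3: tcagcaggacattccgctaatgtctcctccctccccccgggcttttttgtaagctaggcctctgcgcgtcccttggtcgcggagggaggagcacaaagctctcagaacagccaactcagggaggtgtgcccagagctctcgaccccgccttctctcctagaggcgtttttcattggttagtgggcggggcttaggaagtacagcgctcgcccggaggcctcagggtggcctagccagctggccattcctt
Stat2: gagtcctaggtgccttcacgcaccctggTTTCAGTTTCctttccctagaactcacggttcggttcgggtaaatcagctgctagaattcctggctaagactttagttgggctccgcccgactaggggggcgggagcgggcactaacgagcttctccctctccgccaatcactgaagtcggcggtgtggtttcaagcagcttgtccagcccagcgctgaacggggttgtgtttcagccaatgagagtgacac
Socs3: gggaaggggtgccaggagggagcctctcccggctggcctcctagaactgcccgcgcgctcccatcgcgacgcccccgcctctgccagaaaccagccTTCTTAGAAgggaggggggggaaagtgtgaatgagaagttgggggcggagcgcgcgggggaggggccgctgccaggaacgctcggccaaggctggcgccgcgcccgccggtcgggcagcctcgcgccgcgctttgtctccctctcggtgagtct
Cish: TTCCTGGAAagTTCTTGGAA

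Most STAT values lay near or under the background line. Over the 6 genes and 8 arrays, 8 of 48 values were above it, all 8 on arrays numbered 3 and 4 and 0 of 24 on arrays numbered 1 and 2. Stat3 and Stat5a were above the line on 3 arrays each, Stat2 and Stat5b on 1 array each, and Stat4 and Stat6 on 0. At least 1 array above the line was thus reached by 4 of 6 members, against 26.4% of all probe sets. By array, 4 members were above the line on tolerant array 4, 2 on tolerant array 3, and 1 each on rejecting arrays 3 and 4. Small differences of genes near the line do not show that their expression was alike.

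**Figure D1:**
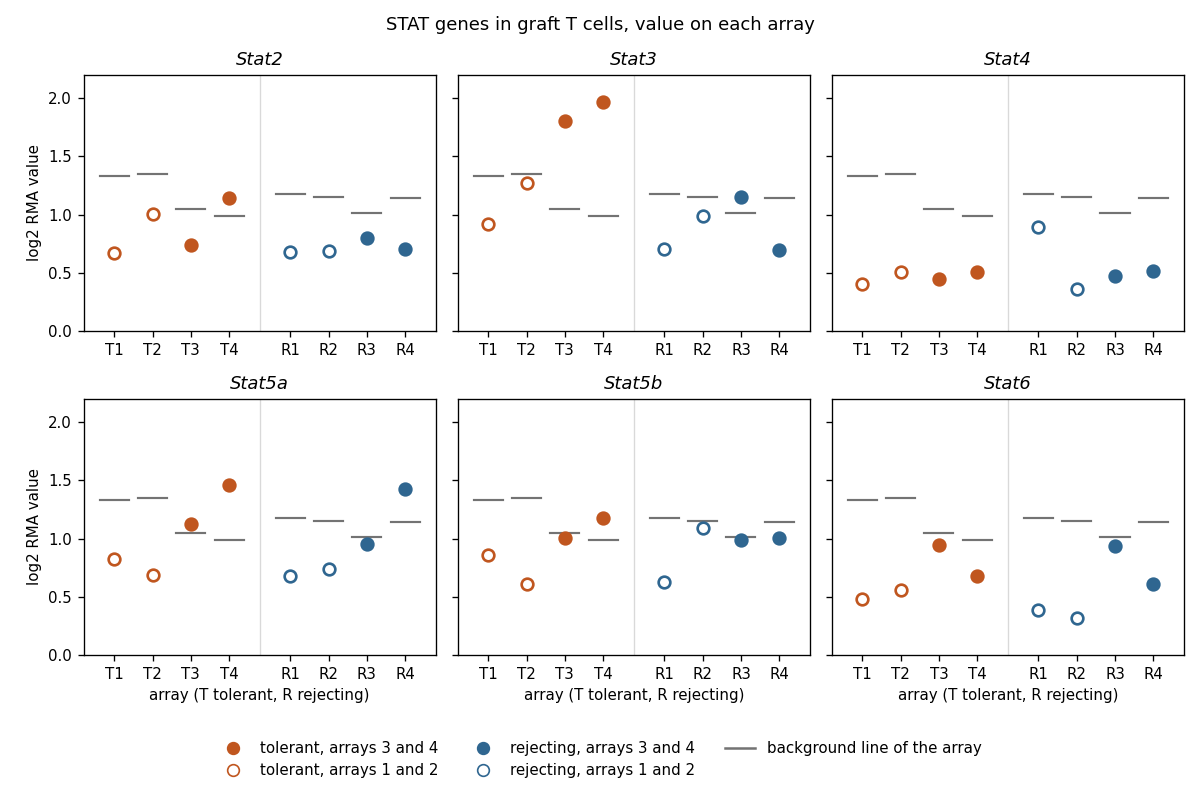
Log2 RMA value (vertical axis) of each STAT gene on each array, tolerant arrays T1 to T4 left of rejecting arrays R1 to R4. Filled points are arrays numbered 3 and 4, open points arrays numbered 1 and 2, and grey bars the background line of each array. Stat3 stands at 1.80 and 1.97 on tolerant arrays 3 and 4, and the other genes reach at most 1.46.

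Stat3, the STAT of interleukin-6 family cytokines and of the Th17 programme, had the largest difference of the 6, on the arrays numbered 3 and 4. Its probe set (10391301) read 1.80 and 1.97 on tolerant arrays 3 and 4, against 1.15 and 0.70 on rejecting arrays 3 and 4. On tolerant arrays 1 and 2 it read 0.92 and 1.27, against 0.71 and 0.99 on rejecting arrays 1 and 2. The groups did not overlap on the arrays numbered 3 and 4 and overlapped on the arrays numbered 1 and 2. Of all probe sets, 19.3% were higher without overlap in tolerant samples on the arrays numbered 3 and 4. Only 3 of these 8 values exceeded their background line, those of tolerant arrays 3 and 4 and of rejecting array 3.

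In this set Stat3 averaged 1.88 ± 0.12 in tolerant and 0.92 ± 0.32 in rejecting samples (SD, n = 2 each). The estimate was 0.96 ± 0.18 (standard error, 95% interval 0.52 to 1.41), a fold of 1.95, and it did not pass limma's test over all probe sets (adjusted p = 0.261). By its unadjusted p Stat3 stood at place 180 of 21218, with 0.844% of probe sets ahead of it. Leaving out each of the 4 arrays gave differences between 0.74 and 1.19, each with the same direction. Rejecting array 4 read 0.70 under a line of 1.14, so that value cannot be told apart from background.

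Over all 8 arrays Stat3 averaged 1.49 ± 0.48 in tolerant and 0.88 ± 0.22 in rejecting samples (SD, n = 4 each). The difference was 0.60 with a standard error of 0.23 (95% interval 0.09 to 1.11, limma adjusted p = 1.00). With arrays numbered 1 and 2 alone it was 0.24 ± 0.19 (standard error, limma adjusted p = 0.948), and from 0.070 without tolerant replicate 2 to 0.42 without tolerant replicate 1. An interaction term for group and set was estimated at 0.72 ± 0.27 (standard error, limma adjusted p = 0.680). The test thus did not show that the Stat3 difference differed between the sets.

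Stat5a and Stat5b, close paralogs that carry interleukin-2 signals, overlapped between the groups over the 8 arrays. Stat5a (10381172) read 0.83, 0.69, 1.13 and 1.46 on tolerant arrays 1 to 4, against 0.68, 0.74, 0.96 and 1.43 on rejecting arrays 1 to 4. It was higher on every array numbered 3 or 4 than on any numbered 1 or 2, in both groups, as were 10.1% of all probe sets. Stat5b (10391286) read 0.86, 0.61, 1.01 and 1.17 on tolerant arrays, against 0.62, 1.09, 0.99 and 1.01 on rejecting arrays. The Stat5b values of the groups interleaved over the 8 arrays. On the arrays numbered 3 and 4 both tolerant values lay narrowly above both rejecting values, as in 19.3% of all probe sets.

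Over all 8 arrays the difference was 0.07 with a standard error of 0.21 for Stat5a (95% interval -0.39 to 0.54) and -0.01 with a standard error of 0.15 for Stat5b (95% interval -0.34 to 0.32). With arrays numbered 3 and 4 alone it was 0.11 for Stat5a (limma adjusted p = 0.918) and 0.09 for Stat5b (limma adjusted p = 0.860). Near-identical stretches of the pair could cross-hybridise, so their probe sets may not be fully separate measurements. Stat5b, Stat5a and Stat3 are direct neighbours on chromosome 11 in the GRCm38.p6 gene table. The differences of these neighbours on arrays numbered 3 and 4 were 0.09, 0.11 and 0.96.

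Stat2, which joins Irf9 downstream of the type I interferon receptor, read above the line only on tolerant array 4. Its probe set (10367224) had 0.67, 1.01, 0.74 and 1.14 on tolerant arrays 1 to 4, against 0.67, 0.69, 0.80 and 0.70 on rejecting arrays 1 to 4. Tolerant arrays 2 and 4 were above all rejecting arrays, and tolerant arrays 1 and 3 were not. The difference was 0.17 over all 8 arrays (standard error 0.12, 95% interval -0.09 to 0.44, limma adjusted p = 1.00), 0.19 on arrays numbered 3 and 4 and 0.16 on arrays numbered 1 and 2.

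The helper lineage factors Stat4 and Stat6 were under the background line on all 8 arrays. Stat4 (10346168), which directs the Th1 programme, read 0.40, 0.51, 0.44 and 0.51 on tolerant arrays 1 to 4, against 0.89, 0.36, 0.47 and 0.51 on rejecting arrays 1 to 4. Apart from rejecting array 1 its values stayed within a narrow band on every array. Stat6 (10366956), which directs the Th2 programme, read 0.48, 0.56, 0.94 and 0.68 on tolerant arrays, against 0.39, 0.32, 0.93 and 0.61 on rejecting arrays. Its array 3 value was the highest in each group. The difference over all 8 arrays was -0.09 with a standard error of 0.12 for Stat4 (95% interval -0.36 to 0.18) and 0.10 with a standard error of 0.16 for Stat6 (95% interval -0.25 to 0.45), each with a limma adjusted p of 1.00. With arrays numbered 3 and 4 alone it was -0.02 for Stat4 and 0.04 for Stat6.

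Over all 8 arrays limma called 0 of the 6 STAT genes at an adjusted p under 0.05, against 0% of all probe sets. At an unadjusted p under 0.05 it was 1 of 6, Stat3, against 2.89%, and 0 of 6 were higher without overlap in tolerant samples, against 1.09%. That 1 became 0 without tolerant replicate 3, tolerant replicate 4, rejecting replicate 1 or rejecting replicate 4. Within arrays numbered 3 and 4 it called 0 of 6, against 0.0518%, and 1 of 6 had an unadjusted p under 0.05, again Stat3, against 7.21%, and 2 of 6, Stat2 and Stat3, without tolerant replicate 3. There Stat3 and Stat5b, 2 of 6, were higher without overlap in tolerant samples, against 19.3% of all probe sets. Within arrays numbered 1 and 2 it called 0 of 6, against 0%, and 0 of 6 had an unadjusted p under 0.05, against 5.15%. Stat6, 1 of 6, was higher without overlap there, against 17.2%. The interaction called 0 of 6, against 0.0566%, with 1 of 6, Stat3, at an unadjusted p under 0.05, against 7.13%. That 1 also became 0 without tolerant replicate 1 or 4 or rejecting replicate 2 or 4, after quantile normalization again, and with dim probe sets left out. The median difference on arrays numbered 3 and 4 was 0.10 for the 6 genes and -0.01 for all probe sets, most of them dim. It was 0.09 for the 3472 probe sets above the line on at least 2 of these arrays, a filter that probe sets high in 1 group alone can pass.

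**Figure D2:**
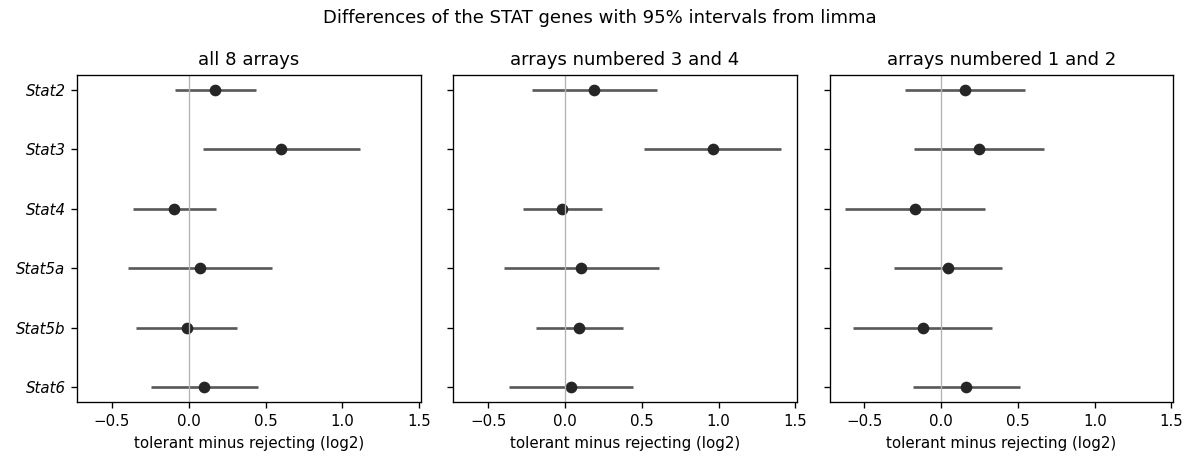
Difference tolerant minus rejecting on the log2 scale (horizontal axis) for each STAT gene, over all 8 arrays, on arrays numbered 3 and 4 and on arrays numbered 1 and 2. Points are limma estimates and lines their 95% intervals, before adjustment for the number of probe sets. The Stat3 interval runs from 0.52 to 1.41 on arrays numbered 3 and 4, and those of the other 5 genes include 0 in each panel.

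For Stat5a, Stat5b and Stat6 the sets of arrays differed more than the groups did. Because the sets were recognised from the values of the arrays, the difference between them is described without a test. Stat5a averaged 1.24 ± 0.24 on arrays numbered 3 and 4 and 0.73 ± 0.07 on arrays numbered 1 and 2 (SD, n = 4 each). Stat6 averaged 0.79 ± 0.17 and 0.44 ± 0.10 on those sets. These were the 2 of 6 genes whose sets did not overlap, against 10.1% of all probe sets with arrays 3 and 4 higher. Stat3, Stat5b and Stat2 were higher by 0.43, 0.25 and 0.08 on arrays numbered 3 and 4, and Stat4 had a difference of -0.06.

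Among the listed receptors and kinases, Il6st and Jak1, named for their small unadjusted p, had differences of similar size to Stat3 on the same arrays. They were the only ones with an unadjusted p under 0.05 there, 1 of 25 receptors and 1 of 3 JAK kinases, against 7.21% of all probe sets. The median difference of the 25 receptors was 0.03. Il6st (10407173), which encodes gp130, the shared signalling chain of the interleukin-6 receptor family, read 2.04 and 1.45 on tolerant arrays 3 and 4, against 0.78 and 0.72 on rejecting arrays 3 and 4. Jak1 (10514668), a kinase that gp130 uses, read 1.59 and 1.66 on tolerant arrays 3 and 4, against 0.38 and 0.82 on rejecting arrays 3 and 4. On arrays 1 and 2 Il6st lay between 0.34 and 0.49 in tolerant and between 0.51 and 0.63 in rejecting samples. Jak1 lay there between 0.45 and 0.50 in tolerant and between 0.61 and 0.68 in rejecting samples. Both genes exceeded the background line only on tolerant arrays 3 and 4.

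With arrays numbered 3 and 4 the estimate was 1.00 ± 0.21 for Il6st (standard error, limma adjusted p = 0.328) and 1.02 ± 0.17 for Jak1 (limma adjusted p = 0.224), so neither passed. On the arrays numbered 1 and 2 it was -0.15 for Il6st and -0.17 for Jak1. The interaction with the set had a limma adjusted p of 0.282 for Il6st and 0.151 for Jak1. Il6ra, the ligand-binding chain that pairs with gp130, differed by 0.00 ± 0.18 (standard error) on arrays numbered 3 and 4. In the same set Jak2 and Tyk2 had differences of 0.07 and -0.15. Among the receptors, Ifnar1, Ifnar2 and Ifngr1, chains of the interferon receptors, had 0.26, 0.40 and 0.34. Leaving out 1 array gave 0.080 to 0.45 for Ifnar1 (without rejecting replicate 3 and 4), 0.094 to 0.71 for Ifnar2 (without rejecting replicate 4 and 3) and 0.16 to 0.51 for Ifngr1 (without tolerant replicate 4 and 3).

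**Figure D3:**
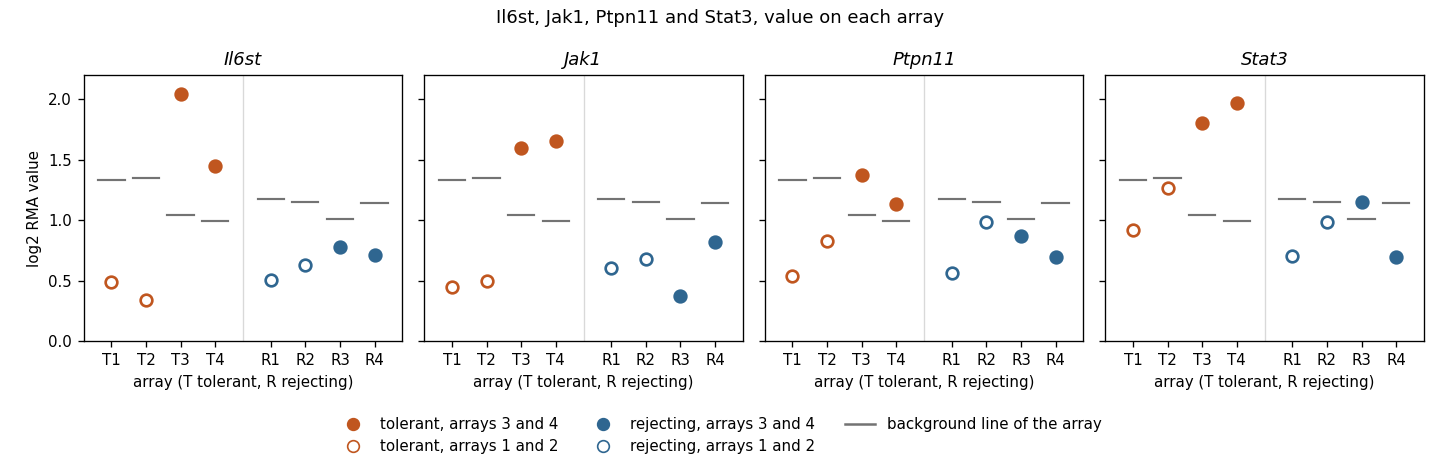
Log2 RMA value of Il6st, Jak1, Ptpn11 and Stat3 on each array, drawn as in the plot of the STAT genes by array. On tolerant arrays 3 and 4 all of these genes lie above the background line, with Il6st at 2.04 and 1.45 and Jak1 at 1.59 and 1.66.

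The wider pathway was read through 10 lists holding 118 genes, of which 112 were measured, the others are not analysed here, and 30 exceeded the line on 2 or more arrays. Of the 112 measured genes, 38 are named for their unadjusted p on arrays numbered 3 and 4, whether or not they exceeded the line. For 26 of the 38, leaving out 1 of those arrays moved the difference by over 1.5 times or turned its sign. None of the 112 passed limma's test in any of the 4 fits, over all 8 arrays, within each set or for the interaction. Within arrays numbered 3 and 4, 10 of 112 genes, or 8.93%, had an unadjusted p under 0.05, against 7.21% of all probe sets. Of the 112, 70 were higher and the median difference was 0.06. For comparison, 48.2% of all probe sets were higher with a median of -0.01, and 62.3% of the 3472 above the line on at least 2 of these 4 arrays, with a median of 0.09. The comparison is not between like sets, since each of the 112 was its gene's probe set with the highest mean, and all probe sets include dimmer ones. The 3472 also include probe sets that passed the line on tolerant arrays alone, so their share higher is not independent of the filter. Within arrays numbered 1 and 2, 56 of 112 were higher with a median of 0.00, and 5 of 112, or 4.46%, had an unadjusted p under 0.05, against 5.15%.

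Upstream, 2 of 3 measured JAK kinases, 16 of 25 receptors and 8 of 21 cytokines were higher on tolerant arrays 3 and 4, with medians of 0.07, 0.03 and -0.03. Most cytokines gave no usable level, since 17 of 21 lay above the line on 0 arrays. Among them Il6, Il9, Il27 and Ifnb1 had differences of -0.17, -0.39, 0.19 and 0.18. Il6 itself, the founding ligand of the gp130 family, read -0.04 and -0.12 on tolerant arrays 3 and 4, against 0.02 and 0.17 on rejecting arrays 3 and 4.

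Among the inhibitors, 7 of 8 SOCS genes were higher, with a median of 0.13 and with 5 of 8 above the line on 0 arrays. Socs3, whose window is printed above with its TTCNNNGAA match, read 1.12 and 0.71 on tolerant arrays 3 and 4, against 0.83 and 0.78 on rejecting arrays 3 and 4. Cish, with 2 such matches, read 0.51 and 0.89 against 0.46 and 0.55 on the same arrays, and all its values lay under the line. Socs2, Socs6 and Socs7 had differences of 0.26, 0.27 and -0.17. Of the other inhibitors 5 of 10 were higher, with a median of 0.04. Ptpn11, the phosphatase SHP2, which also docks on gp130, read 1.37 and 1.13 on tolerant arrays 3 and 4, against 0.87 and 0.69 on rejecting arrays 3 and 4. Its difference of 0.47 did not pass (limma adjusted p = 0.540), nor did that of Ptpn6, the phosphatase SHP1, at -0.36 (limma adjusted p = 0.601). Pias1 and Pias2, which restrain STATs in the nucleus, had 0.17 and 0.15.

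Downstream, the lists of target genes had small medians on the arrays numbered 3 and 4. In the Stat3 list 8 of 13 were higher with a median of 0.11. Icam1, an adhesion molecule, and Mcl1, a survival factor, had differences of 0.56 and 0.40, and the transcription factors Maf and Junb 0.22 and -0.19. Without tolerant replicate 4 the difference was 0.027 for Mcl1 and 0.37 for Icam1, and without tolerant replicate 3 it was 0.77 for Mcl1 and 0.74 for Icam1. In the Stat2 list 12 of 14 were higher with a median of 0.14, as were 11 of 14 on arrays numbered 1 and 2 with a median of 0.18, and 10 of 14 lay above the line on 0 arrays. Its Oasl2, Usp18, Irf9 and Ifit3 had differences of 0.62, 0.55, 0.30 and 0.27. Without tolerant replicate 4 those of Oasl2, Usp18 and Ifit3 were 0.33, 0.17 and 0.13, and without tolerant replicate 3 they were 0.91, 0.93 and 0.41. Oasl2 read 1.19 and 1.77 on tolerant arrays 3 and 4, against 0.94 and 0.77 on rejecting arrays 3 and 4. It was highest on tolerant array 4, as were Stat2, Stat3, Stat5a and Stat5b.

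The Stat5 list had 7 of 11 higher and a median of 0.11. Its Pim1, a kinase gene, and Ccnd2, which encodes cyclin D2, had differences of 0.23 and 0.20, and Gzmb, which encodes granzyme B, had -0.37. The Gzmb difference was -0.027 without rejecting replicate 4 and -0.72 without rejecting replicate 3, and that of Pim1 was 0.045 without tolerant replicate 4 and 0.41 without tolerant replicate 3. Pim1 lay above the line on all 8 arrays and read 1.97 and 2.33 on tolerant arrays 3 and 4, against 2.06 and 1.79 on rejecting arrays 3 and 4, so the groups overlapped. The Stat4 list had 5 of 8 higher and a median of 0.03, with Tbx21, the Th1 factor T-bet, at -0.20, and Il12rb2, Furin and Ets1 at -0.15, 0.08 and 0.16. The Stat6 list had 7 of 12 higher and a median of 0.13. Its Gata3, the Th2 factor, read 1.75 and 1.73 on tolerant arrays 3 and 4, against 1.33 and 1.47 on rejecting arrays 3 and 4, a difference of 0.34 that did not pass (limma adjusted p = 0.590). Chil3, Retnla and Ccr4 had -0.37, 0.19 and 0.17. None of the 10 lists held a gene that passed limma's test in either direction.

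**Figure D4:**
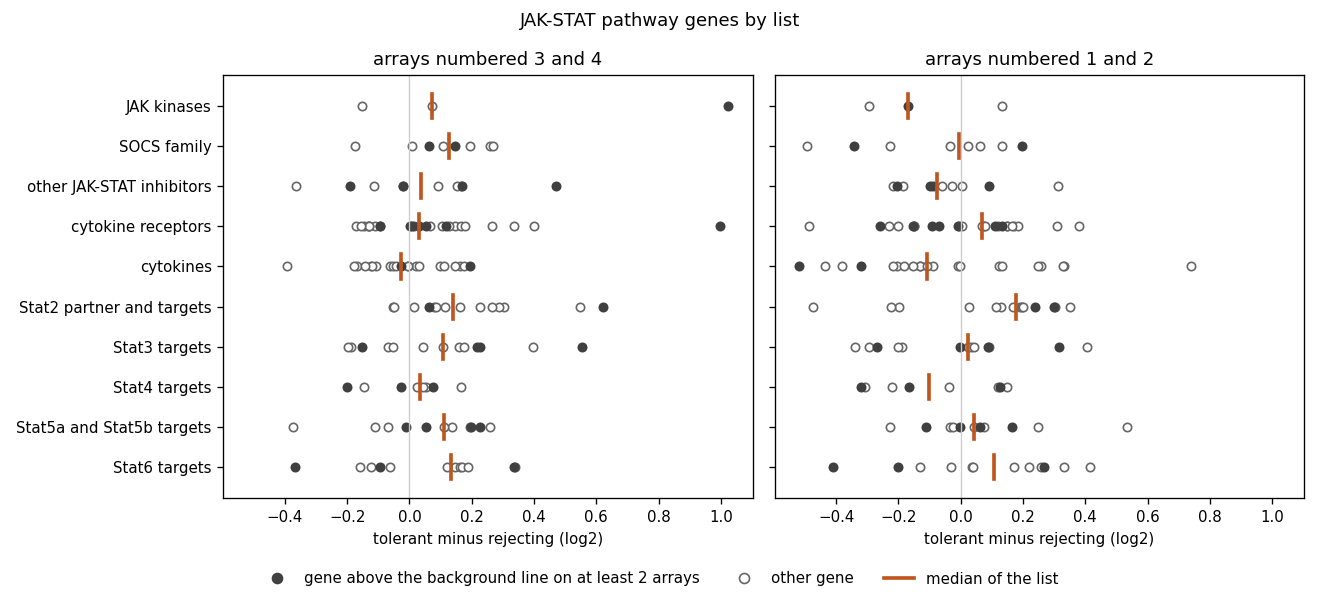
Difference tolerant minus rejecting on the log2 scale (horizontal axis) for each measured gene of the 10 pathway lists, on arrays numbered 3 and 4 and on arrays numbered 1 and 2. Filled points are genes that exceeded the background line on 2 or more arrays, open points the others, and bars the median of each list. On arrays numbered 3 and 4 Jak1 at 1.02 and Il6st at 1.00 lie apart from the other genes.

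Markers of T cells, macrophages, fibroblasts, kidney tubule, epithelium, endothelium and erythroid cells had higher sums in tolerant samples on arrays numbered 3 and 4. Stat3 was higher there too, and granulocyte markers had lower sums. Summed log2 values of 15 macrophage markers were 17.1 and 19.0 on tolerant arrays 3 and 4, against 12.4 and 7.93 on rejecting arrays 3 and 4. Of these 15, 11 were higher, and 7 lay above the line on 0 arrays, Adgre1, Cd14 and Itgam among them. The summed values of 12 fibroblast markers were 25.3 and 24.8 in tolerant, against 17.3 and 14.6 in rejecting samples. All 12 were higher, and 5 of 12, Fap among them, lay above the line on 0 arrays. The summed values of 12 kidney tubule markers were 24.8 and 19.5 in tolerant, against 8.83 and 9.14 in rejecting samples. Of them 11 were higher, and 4 of 12, Lrp2 among them, lay above the line on 0 arrays. The 11 T cell markers, 9 of 11 higher and 3 of 11 above the line on 0 arrays, summed to 12.3 and 16.0 in tolerant, against 10.5 and 12.2 in rejecting samples. The 7 epithelial markers, 7 of 7 higher and 3 of 7 above the line on 0 arrays, summed to 8.22 and 7.20 in tolerant, against 5.32 and 5.84 in rejecting samples. The 9 endothelial markers, 5 of 9 higher and 7 of 9 above the line on 0 arrays, summed to 8.05 and 6.50 in tolerant, against 6.17 and 4.86 in rejecting samples. The 7 granulocyte markers, 6 of 7 lower and 7 of 7 above the line on 0 arrays, summed to 2.17 and 2.13 in tolerant, against 3.02 and 3.06 in rejecting samples. Sums overlapped for 7 B cell markers (3.01 and 2.56 in tolerant, against 3.47 and 2.83 in rejecting samples), 7 NK cell markers (4.15 and 5.07, against 5.63 and 3.48) and 7 dendritic cell markers (4.46 and 3.71, against 4.03 and 4.15). The 3 erythroid markers, 2 of 3 above the line on 0 arrays, summed to 3.60 and 2.26 in tolerant, against 1.96 and 2.01 in rejecting samples. On arrays 1 and 2 the fibroblast sums were 9.98 and 10.7 in tolerant, against 10.4 and 9.73 in rejecting samples, and the kidney tubule sums 5.71 and 6.39, against 6.81 and 6.13. Within arrays numbered 3 and 4 limma called 2 of 12 kidney tubule markers higher in tolerant samples, against 0.0518% of all probe sets called. The interaction called 1 of 12 kidney tubule and 1 of 12 fibroblast markers, against 0.0566%. Markers of the other types had no call in any fit. The marker lists were chosen with earlier results of these data known, so these shares are no test of the lists. With all 35556 probe sets tested, the fit of arrays numbered 3 and 4 called 0. Stat3, Jak1 and Il6st are expressed in many cell types, and the part of other cells in their differences was not tested. In RNA from whole samples, fewer cells of a type and less RNA per cell cannot be told apart.

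The genes most like Stat3 over the 8 arrays were Mlf2, Col14a1 and Tmem50b. Likeness was the root mean square difference between profiles centred on their own means, over 3510 probe sets above the line on at least 2 arrays, as a description. It was 0.098 for Mlf2, 0.113 for Col14a1, a fibril-associated collagen, and 0.146 for Tmem50b, beside a standard deviation of 0.475 for Stat3 itself. Those most like Stat5a, which had a standard deviation of 0.319, were Hnrnpa3, Yif1b and H3f3b at 0.083, 0.093 and 0.093. Stat2, Stat4, Stat5b and Stat6 were above the line on fewer than 2 arrays and were not compared in this way.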

How the data were processed

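The deposited table holds log2 values of 35556 probe sets on 8 arrays. The submitters' processing notes name RMA, a background correction, quantile normalization and probe summary, run in Affymetrix Expression Console. Its version, the genome build and the base of the logarithm were not given in the sources used here. Base 2 was taken because each array's highest value lay between 12.57 and 12.68. Genes were named from the platform annotation, updated through Entrez identifiers to GRCm38.p6 for 21185 of 21218 probe sets with 1 symbol. No coordinates of probe sets are given.

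Differences are tolerant minus rejecting, from limma 3.58.1 in R 4.3.3 (lmFit and eBayes, 2-sided, Benjamini-Hochberg adjustment over all 21218 probe sets, threshold 0.05), fitted over all 8 arrays, within each set of 4 and as an interaction of group and set. The fit was tested on simulated data with independent noise and planted differences much larger than those of the STAT genes. The simulated sets of arrays did not differ from each other as the real sets did. The test therefore does not show how well differences of the size reported here are found. Plots used Python 3.11.15 and matplotlib 3.10.9. The number of arrays limits the precision.

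The members, the lists and the split into sets were chosen with earlier results of these data known. All 6 members are named. From each list up to 4 genes with the smallest unadjusted p on arrays numbered 3 and 4 are named, and others are named beyond this where the text turns on them, chosen after their values were seen. Where a gene of a list had several probe sets, the one with the highest mean stands for it. Likeness left out predicted genes, receptor segments and olfactory receptors.

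Same-numbered arrays of opposite groups deviated together across probe sets, with correlations of 0.499, 0.507, 0.410 and 0.599 for numbers 1 to 4, so the numbers were treated as pairs in an alternative fit. This pairing comes from the data and not from the labels, and arrays of the same set with different numbers correlated as much, by 0.483, 0.497, 0.581 and 0.411.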

Additional observations from a re-analysis of the deposited data

Results flagged for a closer look

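Among 44 probe sets named in the text or the lists, 88 groups of 4 arrays were examined for an array far from the other arrays of its group, by Dixon's criterion. Chance alone marks about 1 in 20 groups, and 4 were marked. Jak2 read 1.18 on rejecting array 1, against 0.43 on the nearest rejecting array. Gata3 read 0.83 on tolerant array 1, against 1.62 on the nearest tolerant array. Chil3 read 1.74 on rejecting array 2, against 0.83 on the nearest rejecting array. Usp18, an interferon-stimulated gene, read 1.29 on tolerant array 4, against 0.58 on the nearest tolerant array. None of the 6 STAT genes was marked.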

How the results depend on the processing

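In 276 fits of the 6 STAT genes under alternatives, 0 had a limma adjusted p under 0.05, the replicate number as a block included. Stat3 kept its direction in each, between 0.44 and 0.79 over all 8 arrays, between 0.74 and 1.19 on arrays numbered 3 and 4 (adjusted p = 0.165 to 0.774), between 0.070 and 0.42 on arrays numbered 1 and 2, and between 0.42, after quantile normalization again, and 0.94, without rejecting replicate 3, for the interaction (adjusted p = 0.425 to 0.973). With the replicate block its difference on arrays numbered 3 and 4 was 0.96 (adjusted p = 0.295), and the block changed no call of a member. Over all 8 arrays 11 of 15 alternatives kept its unadjusted p under 0.05, and 8 of 14 did so for the interaction. In 33 of the fits another member had the other sign. Members not above the line on at least 2 arrays have no value where dim probe sets were left out. On arrays numbered 3 and 4 the difference of Stat4 was 0.0027 after quantile normalization again and 0.0011 centred on the array median, and the interaction of Stat2 was -0.040 after quantile normalization. Leaving out each array in turn gave, over all 8 arrays, -0.16 to 0.017 for Stat4, -0.071 to 0.23 for Stat5a and -0.11 to 0.088 for Stat5b. On arrays numbered 3 and 4 it gave -0.013 to 0.40 for Stat2, -0.049 to 0.014 for Stat4, -0.13 to 0.34 for Stat5a, -0.12 to 0.20 for Stat6, and in the lists -0.035 to 0.18 for Jak2 and -0.044 to 0.37 for Ets1. On arrays numbered 1 and 2 it gave -0.012 to 0.33 for Stat2, -0.43 to 0.097 for Stat4, -0.026 to 0.11 for Stat5a and -0.35 to 0.11 for Stat5b. For the interaction it gave -0.17 to 0.24 for Stat2, -0.11 to 0.42 for Stat4, -0.17 to 0.30 for Stat5a, -0.020 to 0.45 for Stat5b and -0.28 to 0.036 for Stat6. The cause was not tested.

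The count of all probe sets called moved more. On arrays numbered 3 and 4 it was 11, with 5 when only probe sets above the line on at least 2 arrays were tested and 0 with all 35556 probe sets tested. It ran from 0 to 48 on leaving out an array, with 0 without tolerant replicate 3 or 4 and 48 without rejecting replicate 4. On arrays numbered 1 and 2 it was 0, and 0 to 2 on leaving out an array, 2 being without tolerant replicate 2. For the interaction it was 12, with 7 with the replicate block, 0 after quantile normalization, 0 with all probe sets and 0 to 76 on leaving out an array, the bounds being without tolerant replicate 3 and without rejecting replicate 4. At the 95th percentile as background line 6 in place of 4 STAT genes lay above it on at least 1 array. Stat4 did so on 1 array only, rejecting array 1, with 0.89 against a line of 0.83. The share of all probe sets above this lower line is not given here, so the count does not show that the genes were detected.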
